A study of Mus musculus with 12 samples.

Results

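The values below concern 10 named long non-coding RNA genes of the mouse heart: Neat1, Malat1, Gas5, Snhg1, Meg3, Rian, Kcnq1ot1, H19, Dnm3os and Miat. Their probes were taken from the array files as every non-control probe whose gene name in the file is one of these symbols. This gave 24 probes for 9 of the 10 genes, out of 56605 non-control probes and 37008 named symbols on the array. No spot carries the name Malat1, so that gene is not analysed here. A probe was tested if some group had it well above background on each of its 3 arrays. This left 17 of the 24, and all 17 were well above background on all 12 arrays.

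Hearts of 4 groups with 3 samples each were measured, 1 array per sample: CCRR transgenic mice after myocardial infarction (TG+MI), CCRR transgenic mice without it (TG), wild-type mice after infarction (WT+MI) and wild-type mice (WT). CCRR is a long non-coding RNA known for a role in cardiac conduction, and 0 spots carry its name, so the transgene itself could not be checked on these arrays. The strain is given as C57/BL6 for WT+MI and WT samples and is not stated for TG+MI and TG samples. The sources used here give neither the promoter of the transgene, the age of the mice, the time after infarction nor the part of the heart taken. They also do not say whether each sample, called a heart here, was another animal or a pool, so the p-values speak of the spread among these samples alone, and that spread may be technical. WT+MI 2 and WT+MI 3 carry a title prefix that WT+MI 1 lacks, and all 3 were placed by the subgroup in their labels.

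Between 49.3% and 57.2% of spots per array stood well above background, and 0 were saturated. Slide 1 held the WT, WT+MI, TG 1 and TG 2 arrays, and slide 2 held TG 3 and the TG+MI arrays, so WT+MI and WT share a slide, TG+MI meets TG on one slide only through TG 3, and TG+MI and WT+MI cannot be told apart from slide. All 7 cardiomyocyte markers had probes well above background in every group. Summed levels of 4 atrial markers were 158 to 713 times the array's 75th percentile on TG arrays and 216 on WT+MI 1, and at most 56.9 on the other arrays. Adipocyte markers summed to 104 on TG 1 and to at most 6.12 on any other array.

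Long non-coding RNAs act without being translated. Neat1 is the scaffold on which paraspeckles, nuclear bodies that hold RNA-binding proteins, assemble. Gas5 and Snhg1 are host genes: their introns yield small nucleolar RNAs, which guide chemical changes of ribosomal RNA, while the spliced exons are turned over in step with translation. Meg3 and Rian are expressed from the maternal copy of the Dlk1-Dio3 imprinted domain, H19 from the maternal copy of the Igf2-H19 domain, and Kcnq1ot1 from the paternal copy of the Kcnq1 domain, where it silences neighbouring genes in cis. Dnm3os runs antisense within Dnm3 and gives rise to microRNAs, and Miat is a nuclear RNA named after an association with myocardial infarction in humans.

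The probes that carry the infarction results are printed first because a difference can be read only for the stretch each one detects. All are 60 bases long, written from 5′ to 3′ in lower case with no part singled out, and their positions are those in the files, on mm9. The files tie each probe to a transcript of its gene, and its place among the exons was not analysed here. The Neat1 probes lie on the minus strand at chr19:5844123-5844182 and chr19:5844378-5844437. The Gas5 probes lie on the plus strand of chromosome 1, at chr1:162967641-162968147, where the 60 bases span 507 bases of genome and so cross a splice junction, and at chr1:162968590-162968649. The Snhg1 probe lies on the plus strand at chr19:8798913-8798972.
Neat1 A_65_P09473: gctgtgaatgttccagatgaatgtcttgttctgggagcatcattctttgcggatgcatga
Neat1 A_55_P2740113: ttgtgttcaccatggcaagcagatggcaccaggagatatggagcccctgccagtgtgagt
Gas5 A_55_P2740898: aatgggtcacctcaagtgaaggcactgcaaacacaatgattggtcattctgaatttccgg
Gas5 A_55_P2845828: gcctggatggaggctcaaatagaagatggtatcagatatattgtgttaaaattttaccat
Snhg1 A_55_P2117710: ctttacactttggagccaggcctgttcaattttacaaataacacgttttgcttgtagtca

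Meg3 has 5 probes, and 4 of them were tested. Those printed here are shown together because A_55_P2736854 and A_51_P455997 ran alike across the 12 arrays and A_55_P2736010, which lies between them, did not follow them. Along the plus strand of chromosome 12 they lie at chr12:110783470-110783529, chr12:110799833-110799892 and chr12:110809678-110809737, in the order printed. The files tie A_55_P2033407 and A_51_P455997 to the same Meg3 transcript record, A_55_P2736010 to another and A_55_P2736854 to a cDNA record of its own. None of the 4 shares a run of 15 or more bases with any other probe of the array.
Meg3 A_55_P2736854: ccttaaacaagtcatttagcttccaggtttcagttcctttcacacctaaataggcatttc
Meg3 A_55_P2736010: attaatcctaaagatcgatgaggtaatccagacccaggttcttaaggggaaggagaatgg
Meg3 A_51_P455997: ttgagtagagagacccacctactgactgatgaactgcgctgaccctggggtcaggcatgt

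Infarction was accompanied in both genotypes by more Neat1, Gas5 and Snhg1 signal and by less signal on 3 of the 4 tested Meg3 probes. Values are log2 signal relative to the array's 75th percentile, differences are log2 with their SE from limma's moderated test over all 12 arrays, and a probe passed at a Benjamini-Hochberg adjusted p under 0.05 over all 29870 tested probes. In TG+MI against TG hearts, 8 of 17 member probes passed, 5 higher and 3 lower, where 8.32% of all tested probes passed, 4.97% higher and 3.35% lower. In WT+MI against WT hearts, 9 of 17 passed, 7 higher and 2 lower, where 46.3% of all tested probes passed, 18.8% higher and 27.5% lower. The share of members that passed after infarction in wild-type hearts was thus near that of all probes. The 2 groups did not overlap for 9 of 17 member probes in TG+MI against TG hearts, where 30.0% of all tested probes had no overlap, and for 11 of 17 in WT+MI against WT hearts, where 62.2% had none. Neat1, Gas5 and Snhg1 passed as higher in both genotypes. Of Meg3, 2 probes passed as lower in both, and a further one in transgenic hearts. The fourth, A_55_P2736010, passed in neither genotype and was higher by 1.40 ± 0.65 in WT+MI than in WT hearts.

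Neither comparison of transgenic with wild-type hearts gave a member that passed. In TG against WT hearts 0 of 17 passed, where 2.49% of all tested probes did, 1.25% higher and 1.24% lower, and 4 had an unadjusted p under 0.05. In TG+MI against WT+MI hearts 0 of 17 passed, where 9.38% did, 5.33% higher and 4.05% lower, and 1 had an unadjusted p under 0.05. The interaction, which asks whether the infarction difference differs between genotypes, also gave 0 of 17, where 6.1% of all probes passed, 3.74% above and 2.36% below 0, with 1 at an unadjusted p under 0.05. With slide as a block, 0 of the 8 differences of TG+MI from TG passed, where 161 of all 29870 tested probes passed. The TG arrays then count through TG 3 alone, which is also the only TG array within slide 2.

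**Figure D1:**
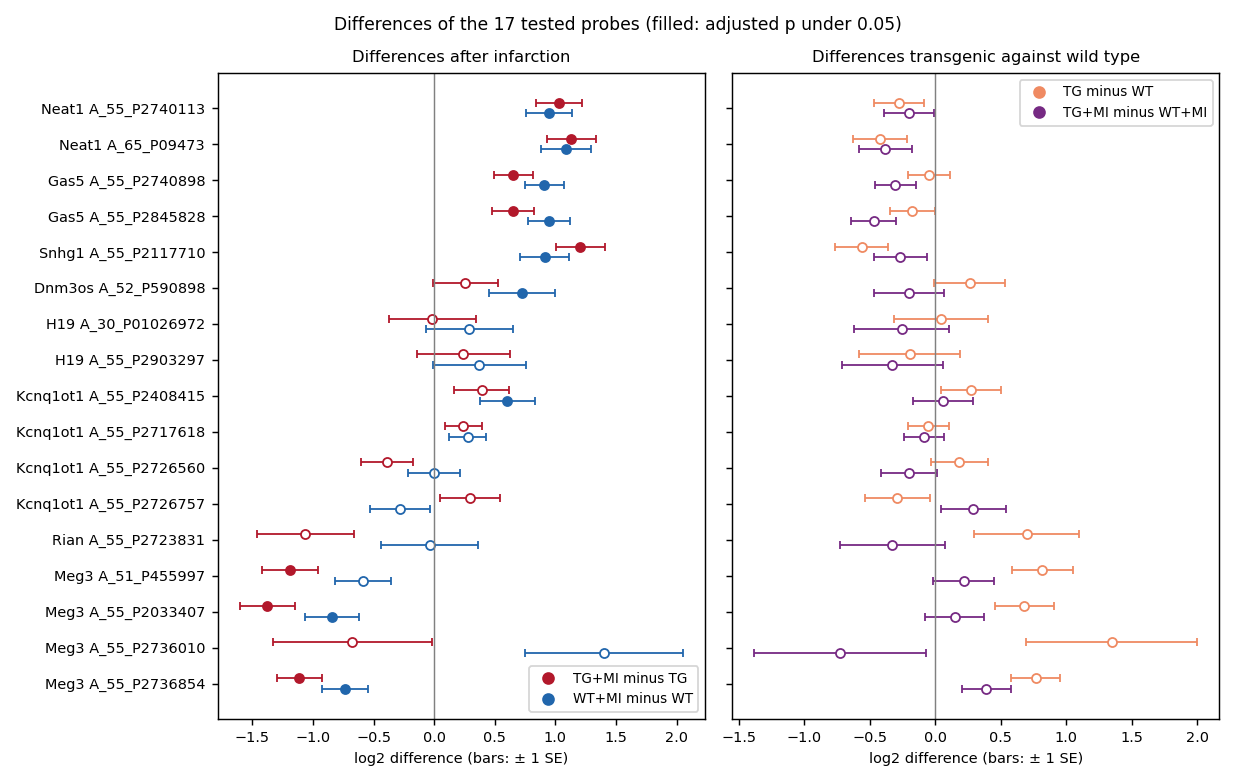
Log2 differences of the 17 tested probes, with bars of 1 SE and filled points at an adjusted p under 0.05: TG+MI minus TG and WT+MI minus WT on the left, TG minus WT and TG+MI minus WT+MI on the right. Neat1, Gas5 and Snhg1 lie to the right of 0 after infarction in both genotypes, 3 of the 4 Meg3 probes lie to the left, and no point is filled in the right panel.

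Neat1 was about 2-fold higher after infarction in both genotypes. Probe A_65_P09473 read 1.09, 1.63 and 0.90 in TG+MI hearts, against -0.12, 0.12 and 0.22 in TG hearts, and 1.33, 1.94 and 1.5 in WT+MI hearts, against 0.38, 0.55 and 0.57 in WT hearts. Every infarcted heart lay above every heart without infarction, and the lowest 3 values were those of TG hearts. The difference was 1.13 ± 0.21 in TG+MI against TG hearts (limma adjusted p 0.0101) and 1.09 ± 0.21 in WT+MI against WT hearts (adjusted p 0.00205), which is 2.19-fold and 2.13-fold. The other Neat1 probe, A_55_P2740113, read -0.27, 0.18 and -0.38 in TG+MI hearts against -1.24, -1.11 and -1.21 in TG hearts, and -0.17, 0.32 and -0.02 in WT+MI hearts against -1.23, -0.73 and -0.75 in WT hearts. It separated infarcted from other hearts in the same way, and the probes of the pair rose and fell together over the 12 arrays (Pearson r 0.978, a description). Its differences were 1.03 ± 0.19 in TG+MI against TG hearts (limma adjusted p 0.0111) and 0.95 ± 0.19 in WT+MI against WT hearts (adjusted p 0.00284). With slide as a block the TG+MI differences were 0.98 and 1.05 (limma adjusted p 0.203 and 0.160), and without normalization between arrays they were 0.96 and 0.86 (adjusted p 0.0770 and 0.105).

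Neutrophil markers moved with Neat1 and with Gas5 and Snhg1, described next, and their part in these results was not tested. Of 5 markers, S100a8, S100a9, Cxcr2 and Retnlg passed as higher in both TG+MI against TG and WT+MI against WT hearts, and Csf3r did not (0.03 ± 0.13 and 0.11 ± 0.13). S100a8 differed by 4.02 ± 0.48 and 4.98 ± 0.48. S100a9 and Cxcr2 still passed in TG+MI against TG hearts with slide as a block, and S100a8 and Retnlg did not (limma adjusted p 0.0593 and 0.322). The summed level of the list, in units of the array's 75th percentile, was 100 to 111 in TG+MI, 80.4 to 86.5 in TG, 212 to 344 in WT+MI and 97.0 to 109 in WT hearts. Cxcr2 was well above background on no TG or WT array, and Retnlg on no TG array, so Cxcr2 was at least 2.72-fold higher in TG+MI than in TG and at least 25.9-fold higher in WT+MI than in WT hearts. Such bounds set the brighter group's mean against the lowest signal that counted as well above background on each array of the dimmer one. In bulk heart RNA, fewer cells of a type and less RNA per cell cannot be told apart.

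Among 11 genes of paraspeckle proteins, the partners of Neat1, 1 of 29 tested probes passed as higher and 0 as lower in TG+MI against TG hearts, where 8.32% of all tested probes passed. There were 9 that passed as higher and 3 as lower in WT+MI against WT hearts, where 46.3% of all tested probes passed, 18.8% as higher. The list's median difference was 0.21 in TG+MI against TG hearts and 0.24 in WT+MI against WT hearts, where the medians of all tested probes were 0.04 and -0.12. Tardbp, which encodes TDP-43, rose by 0.90 ± 0.14 in WT+MI hearts (limma adjusted p 0.000695), and Cpsf6, a subunit of the cleavage factor for polyadenylation, fell by 0.64 ± 0.12 (limma adjusted p 0.00175). Of the proteins that paraspeckles are built on, Sfpq passed on 2 of its 4 probes in WT+MI hearts (0.58 ± 0.14 and 0.52 ± 0.15) and Pspc1 on 1 of 2 (0.48 ± 0.15), whereas the Nono probes differed by 0.10 ± 0.13 and 0.13 ± 0.24 and did not pass. Rbm14 passed in both genotypes, at 0.61 ± 0.14 in TG+MI against TG hearts and 0.59 ± 0.14 in WT+MI against WT hearts, and with slide as a block the TG+MI difference did not pass (0.45, limma adjusted p 0.377).

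Splicing factors of nuclear speckles, bodies that neighbour paraspeckles, gave 3 of 21 probes higher and 0 lower in TG+MI against TG hearts, where 8.32% of all tested probes passed, and 3 higher and 1 lower in WT+MI against WT hearts, where 46.3% did. Srsf7 and Srsf3, both SR proteins that bind exons and promote splicing, account for all the higher ones. Srsf7 differed by 0.85 ± 0.14 in TG+MI against TG hearts (limma adjusted p 0.00609) and by 1.12 ± 0.14 in WT+MI against WT hearts (adjusted p 0.000289). When slide was a block, 0 of the list passed in TG+MI against TG hearts, Srsf7 having an adjusted p of 0.0954 and the Srsf3 probes of 0.0919 and 0.0674 (limma).

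Gas5 was higher in every infarcted heart than in every heart without infarction. Probe A_55_P2740898, across the splice junction, read 4.12, 4.35 and 4.54 in TG+MI hearts, against 3.85, 3.63 and 3.57 in TG hearts, and 4.93, 4.60 and 4.39 in WT+MI hearts, against 3.61, 3.72 and 3.86 in WT hearts. The differences were 0.65 ± 0.16 in TG+MI against TG hearts (limma adjusted p 0.0333) and 0.91 ± 0.16 in WT+MI against WT hearts (adjusted p 0.00147). The WT+MI difference held its call under all 21 alternatives run for it, and the TG+MI difference lost it under 11 of 21, among them leaving out WT 2 (adjusted p 0.0533), TG 1 (0.0551), TG 2 (0.0950), TG 3 (0.0913), TG+MI 2 (0.0950) or TG+MI 3 (0.0686). Probe A_55_P2845828 read 3.58, 3.88 and 3.96 in TG+MI hearts, 3.38, 3.14 and 2.93 in TG hearts, 4.53, 4.35 and 3.94 in WT+MI hearts and 3.26, 3.36 and 3.37 in WT hearts. TG+MI hearts lay above all TG hearts and overlapped WT+MI hearts only through WT+MI 3, and the pair of probes tracked each other over the 12 arrays (Pearson r 0.977, a description). Its differences were 0.65 ± 0.17 in TG+MI against TG hearts (limma adjusted p 0.0429) and 0.95 ± 0.17 in WT+MI against WT hearts (adjusted p 0.00170). The TG+MI call of this probe was lost under 15 of 21 alternatives, among them leaving out any WT array (adjusted p 0.0641 to 0.0654), any TG array (0.0535 to 0.122), WT+MI 2 (0.0596), TG+MI 2 (0.124) or TG+MI 3 (0.0870). When slide was a block, the TG+MI differences of Gas5 were 0.76 and 0.87 (limma adjusted p 0.206 and 0.160).

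Snhg1 showed the same order of groups, TG lowest, then WT, TG+MI and WT+MI. Its probe read -0.99, -0.60 and -0.46 in TG+MI hearts, against -1.70, -1.90 and -2.07 in TG hearts, and 0.05, -0.68 and -0.61 in WT+MI hearts, against -1.27, -1.37 and -1.35 in WT hearts. Each group of hearts without infarction was tight, TG hearts lay below all WT hearts, and WT+MI 1 stood above the other infarcted hearts. The differences were 1.21 ± 0.20 in TG+MI against TG hearts, or 2.31-fold (limma adjusted p 0.00729), and 0.91 ± 0.20 in WT+MI against WT hearts, or 1.88-fold (adjusted p 0.00470). With slide as a block the TG+MI difference was 1.39 ± 0.29 (limma adjusted p 0.0792), and without normalization between arrays it was 1.03 (adjusted p 0.0751).

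**Figure D2:**
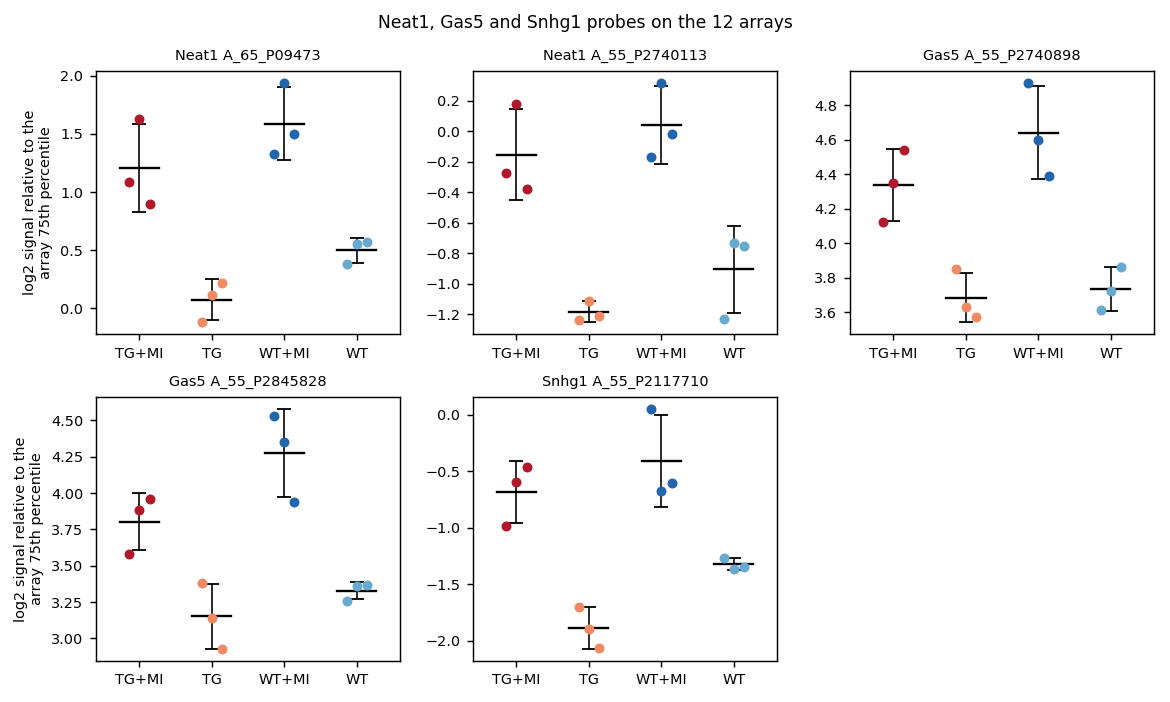
Log2 signal relative to the array's 75th percentile for the Neat1, Gas5 and Snhg1 probes; points are single arrays (replicates 1, 2 and 3 from left to right), lines are group means and bars 1 SD (n = 3). In all 5 panels every TG+MI and WT+MI heart lies above every TG and WT heart, and Neat1 A_65_P09473 and Snhg1 are also lower in every TG than in every WT heart.

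Of 20 tested probes of 17 other genes that host small nucleolar RNAs, 2 passed as higher and 0 as lower in TG+MI against TG hearts, where 4.97% of all tested probes passed as higher and 3.35% as lower. In WT+MI against WT hearts 9 passed as higher, 1 as lower and 10 did not pass, where 18.8% of all passed as higher and 27.5% as lower. The medians were 0.24 and 0.41, beside 0.04 and -0.12 over all tested probes. In WT+MI against WT hearts Snhg15 differed by 2.25 ± 0.47, Snhg5 by 1.13 ± 0.23 and Snhg6 by 1.01 ± 0.14 (limma adjusted p between 0.000551 and 0.00353), and Snhg4, not well above background on any WT array, was at least 2.11-fold higher (adjusted p 0.00137). In TG+MI against TG hearts Snhg5 differed by 0.89 ± 0.23 and Snhg16 by 0.87 ± 0.20 (limma adjusted p 0.0408 and 0.0281), and with slide as a block neither passed (adjusted p 0.159 and 0.291).

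Transcripts of this class start, in textbook cases, with a C followed by a run of pyrimidines, so the promoter windows of the 2 member hosts are printed, 250 bases before and 50 after the start (RefSeq, GRCm38.p6, plus strand). Capitals mark the pyrimidine run that begins at the start site and, in Gas5, the motif TGACGTCA, which reads the same on both strands. The Gas5 window is that of its second listed start, chr1:161034916-161035215, with a run of 5 pyrimidines and TGACGTCA at -46. The window of its first listed start, chr1:161034351-161034650, has neither such a run nor TGACGTCA and is not printed. The Snhg1 window is chr19:8723237-8723536, with a run of 3. A C at the start followed by at least 2 more pyrimidines on the transcribed strand is found in 5.81% of 32851 promoter windows, and TGACGTCA anywhere in 1.79%.
Gas5: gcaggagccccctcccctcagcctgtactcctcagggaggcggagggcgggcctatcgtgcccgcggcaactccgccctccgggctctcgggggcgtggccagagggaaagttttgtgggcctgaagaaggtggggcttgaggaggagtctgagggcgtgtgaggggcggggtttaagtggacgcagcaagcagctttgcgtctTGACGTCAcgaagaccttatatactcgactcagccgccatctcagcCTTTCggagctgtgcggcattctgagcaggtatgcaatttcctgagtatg
Snhg1: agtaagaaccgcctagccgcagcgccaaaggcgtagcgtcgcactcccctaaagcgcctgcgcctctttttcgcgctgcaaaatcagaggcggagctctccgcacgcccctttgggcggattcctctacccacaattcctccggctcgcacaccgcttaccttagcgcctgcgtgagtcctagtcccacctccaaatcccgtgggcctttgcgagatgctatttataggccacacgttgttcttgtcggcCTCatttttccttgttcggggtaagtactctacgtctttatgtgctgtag

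Meg3 went the other way. Probe A_55_P2736854 read 2.01, 1.79 and 1.86 in TG+MI hearts, against 3.43, 2.79 and 2.78 in TG hearts, and 1.52, 1.62 and 1.34 in WT+MI hearts, against 2.05, 2.51 and 2.14 in WT hearts. The 4 groups did not overlap, with WT+MI lowest, then TG+MI, WT and TG. The differences were -1.11 ± 0.19 in TG+MI against TG hearts, or 2.16-fold lower (limma adjusted p 0.00753), and -0.74 ± 0.19 in WT+MI against WT hearts, or 1.67-fold lower (adjusted p 0.00931). Without normalization between arrays the WT+MI difference of this probe did not pass (limma adjusted p 0.0623).

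Probe A_55_P2033407 read -2.87, -3.16 and -3.12 in TG+MI hearts, -1.24, -1.86 and -1.91 in TG hearts, -3.31, -3.38 and -2.90 in WT+MI hearts and -2.64, -1.95 and -2.47 in WT hearts. It kept that order of groups, with the infarcted groups overlapping each other and neither of the others. It differed by -1.38 ± 0.23 in TG+MI against TG hearts (limma adjusted p 0.00672) and by -0.84 ± 0.23 in WT+MI against WT hearts (adjusted p 0.0118). The WT+MI difference of this probe did not pass with normexp background correction, nor without normalization between arrays (limma adjusted p 0.0678), so that under the last setting no Meg3 probe passed in WT+MI against WT hearts. Probe A_51_P455997, at the far end, read 0.65, 0.41 and 0.59 in TG+MI hearts, 2.24, 1.49 and 1.49 in TG hearts, 0.66, 0.34 and 0.00 in WT+MI hearts and 0.70, 1.18 and 0.88 in WT hearts. All infarcted hearts again lay below all others, WT+MI 1 and WT 1 only just. The difference was -1.19 ± 0.23 in TG+MI against TG hearts (limma adjusted p 0.0140), and -0.59 ± 0.23 in WT+MI against WT hearts did not pass (adjusted p 0.0582). It passed in WT+MI against WT hearts without WT+MI 1 (limma adjusted p 0.0384) or without TG 1 (adjusted p 0.0243), and in TG+MI against TG hearts it did not pass without TG+MI 2 (adjusted p 0.0578).

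Over the 12 arrays these 3 probes were correlated with each other at a Pearson r of 0.911 to 0.975, a description over arrays that share groups and slides. Fitted with a slide term, the TG+MI differences of the 3 were -1.14, -0.94 and -0.89 (limma adjusted p 0.171 to 0.275). The summed level of fibroblast markers had the group order of these 3 probes, while single markers differed in direction, and their part in the result was not tested. The sum over 8 markers was 141 to 155 in TG+MI, 219 to 282 in TG, 114 to 141 in WT+MI and 167 to 190 in WT hearts. All 8 markers were well above background in every group. Their 16 tested probes gave 0 higher and 6 lower in TG+MI against TG hearts, of Col1a1, Lum and Postn. Of all tested probes 4.97% passed as higher and 3.35% as lower there. With slide as a block 0 of the 16 passed. Among the same probes 5 passed as higher and 2 as lower in WT+MI against WT hearts, where 18.8% and 27.5% of all tested probes did. The list median was 0.46. The higher ones were 2 probes of Col3a1 (1.90 ± 0.60 for A_55_P2717454), 2 of Postn (0.86 ± 0.27 and 0.70 ± 0.26) and 1 of Mfap5 (0.67 ± 0.22), and the lower ones were Tcf21 (-1.11 ± 0.21) and Dcn (-0.76 ± 0.16). The 5 smooth muscle and pericyte markers summed to 43.1 to 58.0 in TG+MI, 58.9 to 90.8 in TG, 38.5 to 44.8 in WT+MI and 52.5 to 61.8 in WT hearts. The 4 atrial markers summed to 1.79 to 56.9 in TG+MI, 158 to 713 in TG, 1.16 to 216 in WT+MI and 1.55 to 2.43 in WT hearts. The part of both lists in the Meg3 values was not tested.

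The fourth tested Meg3 probe, A_55_P2736010, did not follow the others. It read -2.40, -2.34 and -2.25 in TG+MI hearts, against -0.50, -2.34 and -2.13 in TG hearts, and 0.10, -2.24 and -2.67 in WT+MI hearts, against -3.38, -2.76 and -2.87 in WT hearts. WT+MI 1 and TG 1 stood far above all other hearts, and WT hearts were lowest. Its differences, -0.67 ± 0.65 in TG+MI against TG hearts and 1.40 ± 0.65 in WT+MI against WT hearts, did not pass (limma adjusted p 0.558 and 0.102), and the WT+MI difference passed without WT+MI 3 (1.94, adjusted p 0.0386). Its Pearson r with the other Meg3 probes was 0.0708 to 0.356 over the 12 arrays. The atrial marker sum was 216 on WT+MI 1, 713 on TG 1, 158 on TG 2 and 559 on TG 3. The adipocyte sum was 0.634 on WT+MI 1 and 104 on TG 1, and the part of both lists in the values of this probe was not tested. The genes most like this probe were BC021767, Cd9 and Ehd3 (Pearson r 0.912 to 0.970 over the 12 arrays).

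**Figure D3:**
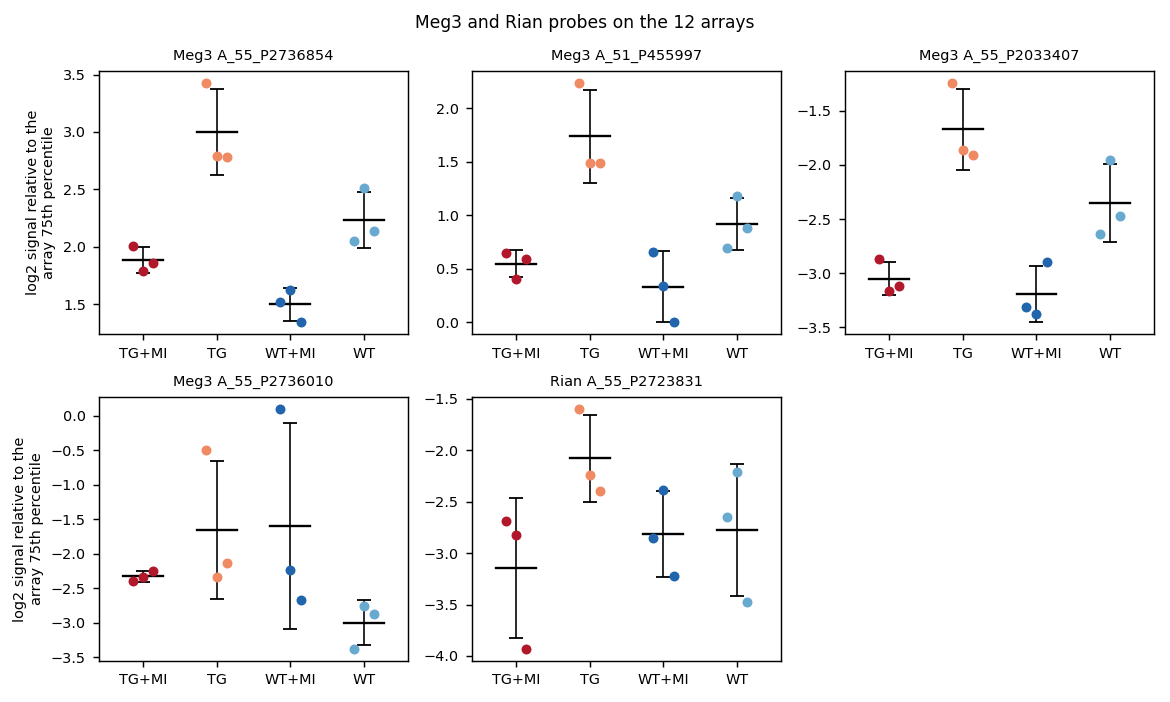
Log2 signal relative to the array's 75th percentile for the 4 tested Meg3 probes and the tested Rian probe; points are single arrays (replicates 1, 2 and 3 from left to right), lines are group means and bars 1 SD (n = 3). In the 3 panels of the upper row the infarcted groups lie below TG and WT, whereas A_55_P2736010 is set apart by TG 1 at -0.50 and WT+MI 1 at 0.10.

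Meg3 has more than one annotated start. Its promoter windows are shown because A_55_P2736854 lies inside one of them (RefSeq, GRCm38.p6, plus strand, 250 bases before and 50 after each start). In the window of the first start, chr12:109540746-109541045, capitals mark TGACGTCA at -57, a motif that also stands in the Gas5 window. In the window of the second start, chr12:109545148-109545447, capitals mark the probe, from -138 to -79, and a run of 20 A follows it. RNA that begins at the second start would not hold the probe.
Meg3, first start: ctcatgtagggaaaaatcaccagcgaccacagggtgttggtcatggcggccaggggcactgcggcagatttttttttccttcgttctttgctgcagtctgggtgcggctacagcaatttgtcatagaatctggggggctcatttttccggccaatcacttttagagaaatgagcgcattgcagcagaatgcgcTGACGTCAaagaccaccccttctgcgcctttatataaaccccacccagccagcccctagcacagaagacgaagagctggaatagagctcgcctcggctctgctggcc
Meg3, second start: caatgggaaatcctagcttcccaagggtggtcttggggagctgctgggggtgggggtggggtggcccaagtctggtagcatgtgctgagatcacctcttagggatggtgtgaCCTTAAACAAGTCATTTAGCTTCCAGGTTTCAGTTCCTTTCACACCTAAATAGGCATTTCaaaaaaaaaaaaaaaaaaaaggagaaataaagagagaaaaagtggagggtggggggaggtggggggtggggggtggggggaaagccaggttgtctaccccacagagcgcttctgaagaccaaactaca

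Rian, the next non-coding RNA along the same domain and a host of small nucleolar RNAs and of 3 annotated microRNA hairpins (Mir341, Mir1188 and Mir370), varied widely between replicates. Its tested probe, at chr12:110899840-110899899 (mm9, plus strand), read -2.69, -2.82 and -3.93 in TG+MI hearts, -1.60, -2.24 and -2.40 in TG hearts, -2.85, -2.39 and -3.22 in WT+MI hearts and -2.65, -2.21 and -3.48 in WT hearts. TG+MI hearts lay below TG hearts without overlap, and the wild-type groups overlapped. The differences of -1.06 ± 0.40 in TG+MI against TG hearts and -0.04 ± 0.40 in WT+MI against WT hearts did not pass (limma adjusted p 0.128 and 0.947).

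Of 6 other genes of the Dlk1-Dio3 domain, 2 had tested probes. Mirg, a further non-coding RNA and microRNA host of the maternal copy, differed by -0.31 ± 0.34 and -0.25 ± 0.31 in TG+MI against TG hearts and by 0.71 ± 0.34 and 0.20 ± 0.31 in WT+MI against WT hearts, and neither probe passed. Begain rose in WT+MI against WT hearts by 1.94 ± 0.30 (limma adjusted p 0.000758), although its signal cleared background on only 1 of the 3 WT arrays. Dlk1, Rtl1 and Dio3, the protein-coding genes of the paternal copy, had no probe well above background on all arrays of a group.

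Kcnq1ot1 has 5 probes along its length, 4 of them tested, and they did not move together (Pearson r from -0.216 to 0.556 over the 12 arrays). Probe A_55_P2408415, nearest the start of the transcript at chr7:150440140-150440199 (mm9, minus strand), read -0.39, -0.08 and 0.12 in TG+MI hearts, -0.31, -0.76 and -0.47 in TG hearts, 0.35, -0.35 and -0.53 in WT+MI hearts and -0.94, -0.78 and -0.63 in WT hearts. All WT hearts lay below all WT+MI hearts, whereas TG+MI and TG overlapped. The difference was 0.39 ± 0.23 in TG+MI against TG hearts, which did not pass (limma adjusted p 0.313), and 0.60 ± 0.23 in WT+MI against WT hearts, which passed narrowly (adjusted p 0.0495). The call was lost under 15 of 21 alternatives, among them leaving out WT+MI 1 (adjusted p 0.178), WT 1 (0.139), WT 2 (0.101), WT 3 (0.0663), WT+MI 2 (0.0575), TG 1 (0.0545), TG 2 (0.0521), TG 3 (0.0640) or TG+MI 2 (0.0626). The other probes had ranges of -1.71 to -1.01 (A_55_P2717618), 2.30 to 3.20 (A_55_P2726560) and 2.74 to 3.79 (A_55_P2726757) over all arrays, and their differences between groups, -0.39 to 0.30, did not pass in any comparison. Of these, A_55_P2726757 and A_55_P2726560 share a run of 25 and of 18 bases with a probe of another name on the array, marked in capitals here because such probes may not be specific.
Kcnq1ot1 A_55_P2408415: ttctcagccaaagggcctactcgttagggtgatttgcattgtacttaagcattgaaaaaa
Kcnq1ot1 A_55_P2726757: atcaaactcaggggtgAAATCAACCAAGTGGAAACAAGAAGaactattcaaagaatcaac
Kcnq1ot1 A_55_P2726560: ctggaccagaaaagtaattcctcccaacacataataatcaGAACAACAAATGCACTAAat

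Of 15 tested probes of Kcnq1 domain genes, 7 passed as lower and 3 as higher in WT+MI against WT hearts, with a median of -0.45, where 27.5% of all tested probes passed as lower and 18.8% as higher. In TG+MI against TG hearts 0 passed, where 8.32% of all did. Cardiomyocyte markers gave counts of the same kind, with 0 of 15 probes passing in TG+MI against TG hearts and 7 lower and 0 higher in WT+MI against WT hearts (median -0.58), and their part in the Kcnq1 domain values was not tested. Cdkn1c, a cyclin-dependent kinase inhibitor silenced on the paternal copy, differed by -0.71 ± 0.21 in TG+MI against TG hearts (limma adjusted p 0.0636) and by -1.81 ± 0.21 in WT+MI against WT hearts (adjusted p 0.000237). Kcnq1, the potassium channel gene that Kcnq1ot1 overlaps in antisense, passed as lower on all 4 of its tested probes in WT+MI against WT hearts. None passed in TG+MI against TG hearts, where A_55_P2094641 and A_55_P2086203 differed by -0.35 ± 0.20 and -0.25 ± 0.27. A_66_P102591 was well above background on 2 TG+MI and 2 TG arrays and A_55_P2745108 on 1 TG array, so their differences there are not given. In WT+MI against WT hearts A_55_P2086203 and A_55_P2094641 differed by -0.90 ± 0.27 and -0.98 ± 0.20. The others, A_66_P102591 and A_55_P2745108, were not well above background on any WT+MI array. They were at least 1.69-fold and 1.15-fold lower, A_55_P2745108 being measured on 2 of 3 WT arrays. WT was the only group with A_66_P102591 well above background on all 3 arrays, so that probe was tested through its brighter group. The interaction did not pass for any of these 5 probes (limma adjusted p 0.0533 to 0.274). In TG+MI against WT+MI hearts, which share no slide, Cdkn1c was higher by 0.98 ± 0.21 (limma adjusted p 0.0319). Kcnq1 A_55_P2745108 was at least 1.22-fold higher there. TG+MI was the only group with that probe well above background on all 3 arrays, so it was tested through its brighter group and no p is given.

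H19, the non-coding RNA that carries the microRNA hairpin Mir675, did not pass in any comparison. Probe A_55_P2903297 read 2.56, 3.13 and 1.60 in TG+MI hearts, 2.49, 2.54 and 1.54 in TG hearts, 2.54, 3.22 and 2.52 in WT+MI hearts and 2.19, 2.33 and 2.64 in WT hearts. TG+MI 3 and TG 3 were lowest and all groups overlapped. The differences were 0.24 ± 0.38 in TG+MI against TG hearts and 0.37 ± 0.38 in WT+MI against WT hearts (limma adjusted p 0.740 and 0.448). Probe A_30_P01026972 ranged from -3.10 to -1.43 over all arrays, again lowest on TG+MI 3, with differences between -0.30 and 0.29 in the 5 comparisons. Igf2, the growth factor gene that shares its enhancers with H19, differed by -0.70 ± 0.31 and -0.22 ± 0.34 in TG+MI against TG hearts and by -0.74 ± 0.31 and -0.52 ± 0.34 in WT+MI against WT hearts, and neither probe passed (limma adjusted p 0.0720 to 0.733). With slide as a block the WT+MI difference of the first, A_51_P516833, passed (-0.74, limma adjusted p 0.0450). In the list of 7 neighbours, 0 of 10 tested probes passed in TG+MI against TG hearts, where 8.32% of all tested probes did. In WT+MI against WT hearts 3 passed as higher, all of Lsp1, and 2 as lower, where 18.8% and 27.5% of all tested probes did.

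Dnm3os, which holds the hairpins Mir199a-2 and Mir214, was measured by 1 probe. It read -1.30, -1.26 and -2.19 in TG+MI hearts, -1.74, -1.78 and -2.00 in TG hearts, -1.76, -1.38 and -1.0 in WT+MI hearts and -2.30, -1.76 and -2.27 in WT hearts. The groups overlapped in every comparison, WT+MI 1 and WT 2 being equal at 2 decimals. The difference was 0.26 ± 0.27 in TG+MI against TG hearts, which did not pass (limma adjusted p 0.593), and 0.72 ± 0.27 in WT+MI against WT hearts (adjusted p 0.0485). That call was lost under 13 of 21 alternatives, with an adjusted p up to 0.156, among them leaving out WT+MI 3 (0.156), WT 1 (0.137), WT 3 (0.131), WT+MI 2 (0.0949), TG 1 (0.0605), TG 2 (0.0619), TG 3 (0.0598) or TG+MI 1 (0.0522). Dnm3, the dynamin gene on the other strand, passed as lower on 1 of 3 probes in WT+MI against WT hearts (-0.63 ± 0.23, limma adjusted p 0.0482).

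**Figure D4:**
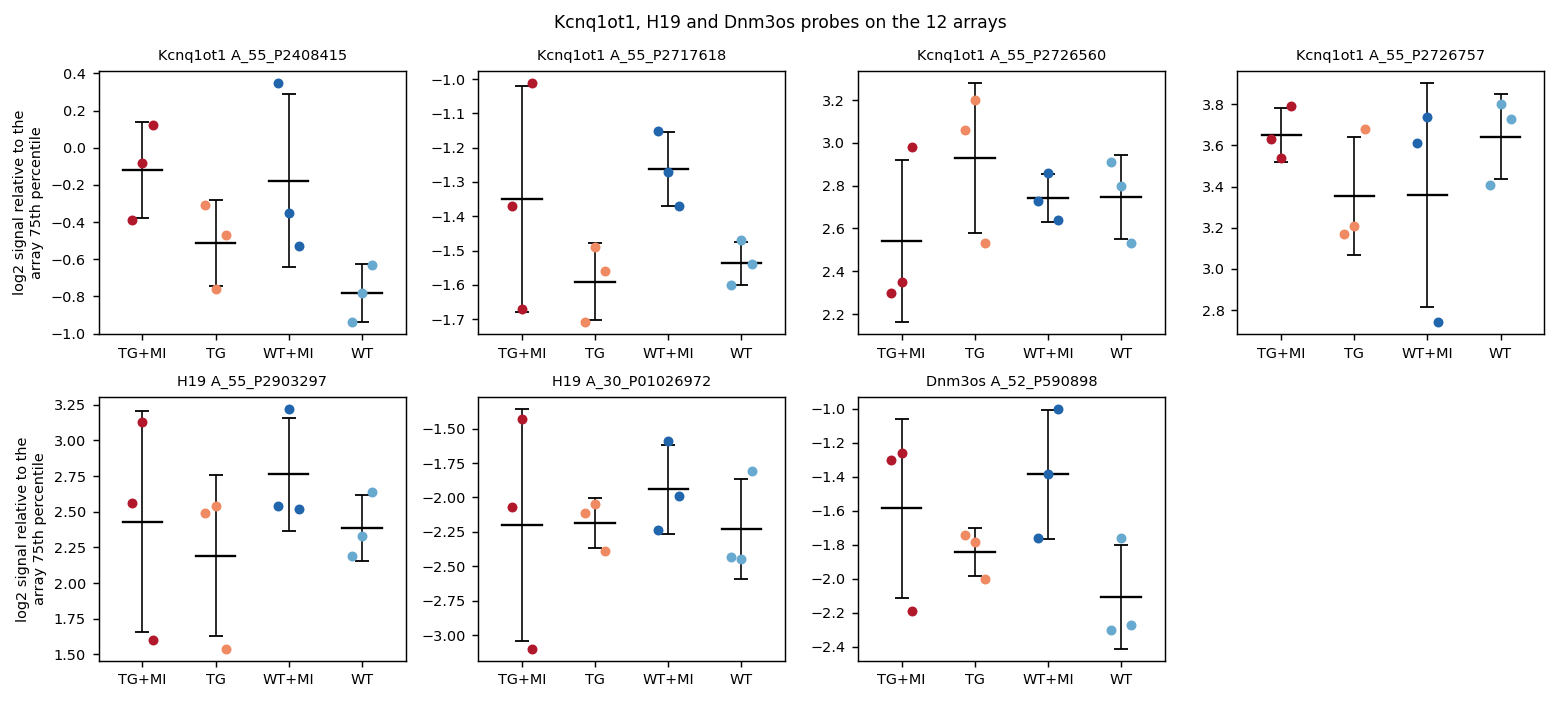
Log2 signal relative to the array's 75th percentile for the 4 tested Kcnq1ot1 probes, both H19 probes and the Dnm3os probe; points are single arrays (replicates 1, 2 and 3 from left to right), lines are group means and bars 1 SD (n = 3). Kcnq1ot1 A_55_P2408415 and A_55_P2717618 have all WT+MI above all WT hearts, and in the other panels every group overlaps its neighbours.

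Miat could not be compared. All 4 of its probes lay near background: A_55_P2741091 and A_55_P2741126 were well above background on 0 of 12 arrays, A_55_P2741116 on 1 and A_55_P2508475 on 2. The untested probes of Meg3 (A_65_P01584), Rian (A_55_P2741381) and Kcnq1ot1 (A_52_P534609) were well above background on 1, 0 and 0 arrays. No fold change is given for these 7 probes.

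Without infarction, all 4 tested Meg3 probes had higher values in transgenic than in wild-type hearts, but none passed. In TG against WT hearts A_55_P2736854, A_51_P455997 and A_55_P2033407 differed by 0.76 ± 0.19, 0.82 ± 0.23 and 0.68 ± 0.23 (limma adjusted p 0.0627, 0.0998 and 0.151). A_55_P2736010 differed by 1.35 ± 0.65 (limma adjusted p 0.312), and all TG values lay above all WT values on each of the 4. Under normexp background correction, and without normalization between arrays, A_55_P2736854 (limma adjusted p 0.0200 and 0.0194) and A_51_P455997 (0.0303 and 0.0216) passed. The fibroblast marker list gave 5 of 16 probes higher and 0 lower in TG against WT hearts, with a median of 1.10. Of all tested probes 1.25% passed as higher and 1.24% as lower. Smooth muscle and pericyte markers gave 3 of 10 higher and 0 lower (median 1.58). Of 4 tested probes of 3 atrial markers, 2 passed as higher, both of 1 marker, and 0 as lower (median 8.45). With slide as a block 0 of them passed. Adipocyte markers gave 0 of 6 tested probes (median 4.4). The part of these lists in the Meg3 difference was not tested. Snhg1 differed by -0.56 ± 0.20 and Neat1 A_65_P09473 by -0.42 ± 0.21 (limma adjusted p 0.182 and 0.310), again with no overlap of the groups. Of the 5 neutrophil markers, S100a9 passed as lower in TG against WT hearts (-2.08 ± 0.44, limma adjusted p 0.0367), but not with slide as a block (adjusted p 0.0527). The other 4 did not pass, S100a8 differing by -2.07 ± 0.48 and Csf3r by -0.20 ± 0.13. Cxcr2 was well above background on no TG or WT array and Retnlg on no TG array. The part of these markers in the Snhg1 and Neat1 differences was not tested. Groups did not overlap for 6 of 17 member probes in TG against WT hearts, where 33.2% of all tested probes had no overlap.

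Between transgenic and wild-type hearts after infarction, the differences of these RNAs did not pass the test. Groups did not overlap for 1 of 17 member probes in TG+MI against WT+MI hearts, Meg3 A_55_P2736854 (0.39 ± 0.19, limma adjusted p 0.182), where 32.2% of all tested probes had no overlap. Gas5 A_55_P2845828 differed by -0.47 ± 0.17 (limma adjusted p 0.0942) and passed without WT+MI 3 (-0.64, adjusted p 0.0348). The Neat1 probes differed by -0.38 ± 0.21 and -0.20 ± 0.19 and Snhg1 by -0.27 ± 0.20, and none passed. Among 5 neutrophil markers, S100a8, S100a9 and Cxcr2 passed as lower in TG+MI against WT+MI hearts, by -3.03 ± 0.48, -2.73 ± 0.44 and -3.02 ± 0.43, none passed with slide as a block (limma adjusted p 0.658 for each), and their part in these differences was not tested. The interaction was -0.30 ± 0.24 for that Gas5 probe, 0.29 ± 0.29 for Snhg1, 0.04 ± 0.29 for Neat1 A_65_P09473 and -0.37 ± 0.27 for Meg3 A_55_P2736854, and no member passed.

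Of 32 tested probes of 16 other named long non-coding RNA genes, 4 passed as higher and 1 as lower in TG+MI against TG hearts, where 4.97% of all tested probes passed as higher and 3.35% as lower. In WT+MI against WT hearts 4 passed as higher and 14 as lower, and of all tested probes, too, more passed as lower (27.5%) than as higher (18.8%). The list's medians were -0.09 and -0.25. In WT+MI against WT hearts Mhrt, an antisense transcript of the myosin heavy chain locus, differed by -1.98 ± 0.32 and Mir99ahg, a microRNA host, by -1.80 ± 0.26 (limma adjusted p 0.000914 and 0.000589). Rmst, not well above background on any WT+MI array, was at least 2.99-fold lower (adjusted p 0.000670). Pvt1, which lies beside Myc, rose in both genotypes, by 1.24 ± 0.20 on A_55_P2051254 in TG+MI against TG hearts and by 1.60 ± 0.20 in WT+MI against WT hearts (limma adjusted p 0.00641 and 0.000322). Its other named probe, A_55_P2728966, was not well above background on any TG array and was at least 1.17-fold higher in TG+MI hearts. TG+MI was the only group with this probe well above background on all 3 arrays, so it was tested through its brighter group and no p is given. With slide as a block, TG counts through TG 3 alone. The TG+MI difference of A_55_P2051254 was then 1.12 and did not pass.

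Genes beside the members gave 2 of 22 probes higher and 0 lower in TG+MI against TG hearts and 5 higher and 4 lower in WT+MI against WT hearts, near the 8.32% and 46.3% of all tested probes that passed. Slc3a2, the amino acid transporter subunit gene next to Snhg1, rose on both named probes, by 1.01 ± 0.26 and 0.87 ± 0.20 in TG+MI against TG hearts and by 1.52 ± 0.26 and 1.28 ± 0.20 in WT+MI against WT hearts (limma adjusted p 0.0409, 0.0280, 0.00131 and 0.000923). Neither TG+MI difference passed with slide as a block (limma adjusted p 0.262 and 0.351).

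**Figure D5:**
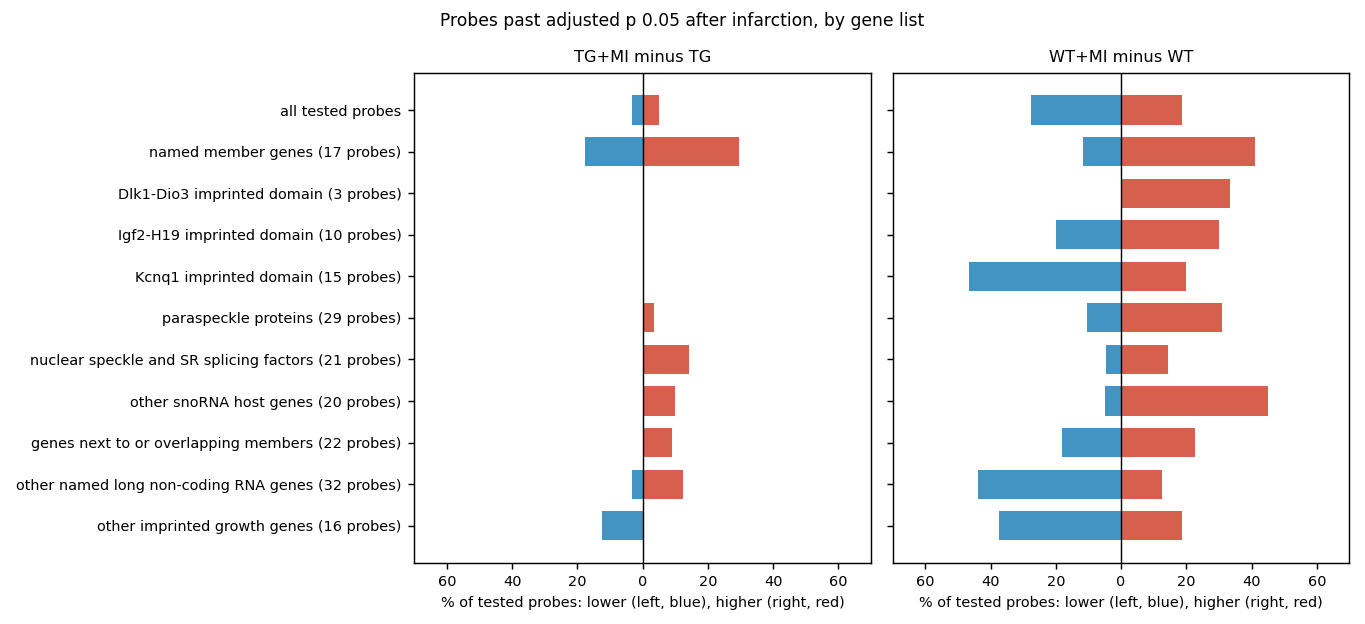
Share of tested probes that passed after infarction, higher to the right and lower to the left of 0, for all tested probes, the member genes and 9 gene lists, in TG+MI minus TG (left) and WT+MI minus WT (right). Other snoRNA host genes had 9 of 20 probes higher in WT+MI hearts, and the Kcnq1 domain had 7 of 15 lower.

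The genes whose values ran most alike a member's over the 12 arrays are given as a description. For Neat1 A_65_P09473 they were Itga7, Elac2 and Gm5766 (Pearson r 0.982 to 0.987), and for Gas5 A_55_P2740898 they were Tiam2, Icam1 and Rbm3 (0.986 to 0.992). Snhg1 ran most alike Sde2, Rps24, which encodes a ribosomal protein, and Pvt1 (0.977 to 0.978). The Pvt1 probe was A_55_P2728966, which was not well above background on any TG or WT array. For the Meg3 probes the genes were Abi3bp, Zfp185 and Apoe (A_51_P455997), Pdgfrl, Matn2 and Phactr1 (A_55_P2033407) and Kcna1, Matn2 and Timp2 (A_55_P2736854), at 0.965 to 0.982. Matn2, which encodes an extracellular matrix protein, was named for 2 of the 3, and those 2 probes themselves ran alike (Pearson r 0.946).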

How the data were processed

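RNA of 12 mouse heart samples was labelled with Cy3, per the labels' protocols, and hybridised to 1-colour Agilent arrays of 62976 features. The deposited intensities are processed signals, background-subtracted and detrended by Agilent Feature Extraction 12.0.3.1, per the file headers, with positions on mm9. The authors' value table of the same arrays was deposited as log2 values: column medians are 4.21 to 4.22, each column follows its own array in rank, and how they were normalized and centred is not stated. It served as an alternative, and limma is named in the submitters' processing notes without a version.

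Processed signals of 59305 non-control spots were taken as log2 minus the array's 75th percentile (198 to 374 units), outlier spots were left out, and spots of a probe were averaged. Of 56605 probes 49 had no value on some array after that. A group-means model was fitted over 12 arrays with limma 3.58.1 (R 4.3.3, lmFit and eBayes), with Benjamini-Hochberg adjustment over 29870 tested probes and a threshold of 0.05. It was checked on simulated data. Different probes of a gene were kept apart. The number of arrays limits the precision. The members, gene lists and marker lists were chosen with earlier results of these data known. In each list, at most 4 passing probes per comparison with the largest difference, and partner genes fixed by name, could be named, and for each tested member the 3 most alike genes. Marker sums add the brightest probe of each marker on the linear scale. Probe sequences come from the array files and promoter windows from RefSeq (GRCm38.p6), and runs of 15 or more bases shared between probes were searched on both strands. Alternatives were normexp with an offset of 50, quantile normalization, no normalization, the authors' table, other filters, slide as a block, within 1 slide, a replicate block and leaving out each array. The sequence of 1 Meg3 probe and the genes most like Dnm3os are not reported here.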

Additional observations from a re-analysis of the deposited data

Results flagged for a closer look

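Some probes that were not tested were well above background on few arrays. Miat A_55_P2508475 read -4.42 on TG 1, where it was well above background, and -4.91 to -4.63 in WT hearts. TG+MI 2, at -4.69, was the only other array on which it was well above background, and TG+MI 3 read -4.57, so TG 1 was not set apart. Another Miat probe, A_55_P2741116, read -1.55 on WT 2 and at most -5.35 on every other array. Meg3 A_65_P01584 read -4.23 on TG 1, where it was well above background, -4.71 on TG 2, where it was not, and lay between -6.50 and -5.15 in WT hearts. TG 1 is also the array on which Meg3 A_55_P2736010 was high and on which adipocyte markers summed to 104, and the part of these markers was not tested.

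In 2 genes named from the lists the interaction passed, where 6.1% of all tested probes did. They were 1 of 16 tested probes of other imprinted growth genes and 1 of 20 of other snoRNA host genes, near that share. Grb10, an imprinted adaptor of growth factor receptors, had an interaction of 0.71 (limma adjusted p 0.0456), and 0.81 with slide as a block (adjusted p 0.209). Snhg6, a host of small nucleolar RNAs, had an interaction of -0.82 (limma adjusted p 0.0457), and -0.52 with slide as a block (adjusted p 0.278).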

How the results depend on the processing

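The WT+MI differences of Neat1, Gas5 and Snhg1 passed under all 21 alternatives run for each, and 0 differences of members that passed changed sign under any. Of 85 pairs of a member probe and a comparison, 62 passed under no setting. Member probes that passed came to 5 in WT+MI against WT hearts without normalization, where the main count was 9, and to 3, all of Meg3, in TG+MI against TG hearts without normalization and 0 with slide as a block and 0 within 1 slide, where it was 8. In TG against WT hearts 2 members passed under normexp and 2 without normalization, where it was 0. Leaving out single arrays gave 7 to 9 members in WT+MI against WT, 5 to 8 in TG+MI against TG (5 without TG+MI 2), 0 to 1 in TG+MI against WT+MI (1 without WT+MI 3) and 0 in TG against WT hearts and for the interaction.

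Counts over all probes moved more. Without normalization 948 probes passed in TG+MI against TG, 1121 in TG+MI against WT+MI, 6565 in WT+MI against WT and 1198 in TG against WT hearts and 430 for the interaction, where the main counts were 2484, 2802, 13829, 743 and 1823; the median of all probes was then 0.35 in TG against WT and 0.29 in TG+MI against WT+MI hearts, so that 1139 of the 1198 were higher. With no filter on dim probes the counts were 1338 (TG+MI against TG), 24 (TG+MI against WT+MI), 284 (TG against WT) and 21 (interaction). With slide as a block they were 161, 0, 463 and 3 in the same order, and within 1 slide 0 in TG+MI against TG hearts. Leaving out single arrays gave 904 to 3280 in TG+MI against TG, 0 to 4500 in TG+MI against WT+MI, 183 to 1328 in TG against WT hearts and 35 to 3324 for the interaction. The cause of these shifts was not tested.

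The replicate numbers of the labels name no shared animal or day, and deviations of same-numbered samples correlated between -0.26 and 0.12. With the replicate block, 7 of 17 member probes passed in each infarction comparison. Of all 29870 tested probes, 13057 then passed in WT+MI against WT hearts and 1708 in TG+MI against TG hearts. In the others 0 members passed, where 436 of all probes passed in TG against WT hearts, 2224 in TG+MI against WT+MI hearts and 1364 for the interaction. Rian then passed in TG+MI against TG hearts (limma adjusted p 0.0405). Probes near background, among them all of Miat, gave no measurement.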

Other observations

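Imprinted growth genes outside the domains of the members were counted as well. Of 16 tested probes of 9 such genes, 0 passed as higher and 2 as lower in TG+MI against TG hearts, and 3 passed as higher and 6 as lower in WT+MI against WT hearts, where 8.32% and 46.3% of all tested probes passed. Sgce, which encodes epsilon-sarcoglycan of the muscle cell membrane, was lower after infarction on both of its named probes. A_51_P311137 read 2.09, 2.04 and 2.05 in TG+MI hearts, against 3.02, 2.68 and 2.75 in TG hearts, and 1.57, 1.66 and 1.86 in WT+MI hearts, against 2.42, 2.59 and 2.57 in WT hearts. The infarcted groups did not overlap their controls, and the differences were -0.76 ± 0.12 in TG+MI against TG hearts (limma adjusted p 0.00588) and -0.83 ± 0.12 in WT+MI against WT hearts (adjusted p 0.000589). Fitted with slide as a block the TG+MI difference was -0.69 (limma adjusted p 0.142).

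Mest, a gene expressed from the paternal copy, differed between the infarcted groups. Probe A_55_P2090025 read -1.23, -1.31 and -2.10 in TG+MI hearts, against 0.58, -0.29 and -0.09 in WT+MI hearts, while TG hearts read -1.83, -2.08 and -1.87 and WT hearts -1.29, -1.46 and -1.06. WT+MI hearts lay above all others, and TG hearts lay below all WT hearts. The difference was -1.61 ± 0.26 in TG+MI against WT+MI hearts (limma adjusted p 0.0224), where slide and group cannot be told apart, and 1.34 ± 0.26 in WT+MI against WT hearts (adjusted p 0.00253). Probe A_55_P2151868 passed as lower in TG against WT hearts (limma adjusted p 0.0145, and 0.0459 with slide as a block). It was well above background on 0 TG arrays and 1 WT array, so no fold change is given.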
